A study of Mus musculus with 4 samples.

Results

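In bone-marrow progenitor cells without Asxl1, 30 loci that were barely transcribed in wild-type cells carried clearly more reads. They were chosen from 17956 loci of the deposited table by their values: a mean of the wild-type libraries under 100 normalised read counts, at least 50 in each library without Asxl1, and in each of those at least 3 times the higher wild-type value. These thresholds were met by 33 loci, 0.184% of the table. Ccnb1ip1, Slc15a2 and the merged Six6os1, Six6 and 4930447C04Rik locus met them but were set aside by the rule, as was the stefin cluster of chromosome 16, which held none of the 33. A gene symbol names 27 of the 30 loci and a cDNA clone names the other 3. Because the rule used the knockout and wild-type values, every difference between the genotypes at these loci is a description and carries no test.

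The cells were Lin-Kit+ cells of C57BL/6 mice, the part of the marrow without mature-lineage surface markers and with the Kit receptor, in which stem and progenitor cells lie. RNA was sequenced from 2 libraries of the wild type (WT) and 2 of the genotype labelled Asxl1-/- (KO), with 2000000 cells behind each. The sources used here give neither how the allele was made nor the age of the mice or any treatment, and no label names the animals behind the libraries. In bulk RNA, fewer cells with a transcript and less transcript per cell cannot be told apart.

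ASXL1 is a chromatin protein found in the BAP1 deubiquitinase complex, which removes ubiquitin from histone H2A, and it has been linked to the Polycomb machinery that keeps developmental genes silent. It is often mutated in myeloid malignancy. Tissue-restricted genes such as those of muscle, neurons, cartilage and germ cells are normally held at or near zero output in blood progenitors. A locus at that level is measured with few reads, so its fold change is sensitive to single counts.

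Promoter sequences are shown for 6 of the loci as examples that differ in CpG content. Since they were picked by their values or their CpG content, no relation of CpG to the ratio is read from them. The first 4 had the largest KO to WT ratios among loci with a promoter entry, Mybpc3 had the highest KO value, and Cntn3 had no CpG in its promoter window. Each sequence is the 100 bases before the RefSeq start, read 5′ to 3′ on the gene's own strand, from GRCm38.p6, with every CpG in capitals. All other coordinates in the text are those of the deposited table, in build mm9.
Trnp1 (chr4:133498551-133498650, minus strand): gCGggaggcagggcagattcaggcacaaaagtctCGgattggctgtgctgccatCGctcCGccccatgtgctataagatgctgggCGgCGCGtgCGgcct
Rpl39l (chr16:10170128-10170227, plus strand): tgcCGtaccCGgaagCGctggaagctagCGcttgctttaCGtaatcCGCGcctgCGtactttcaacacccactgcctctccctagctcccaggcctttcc
Col9a2 (chr4:121039466-121039565, plus strand): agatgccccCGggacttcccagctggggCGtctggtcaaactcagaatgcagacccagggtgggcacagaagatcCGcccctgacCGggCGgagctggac
Adra2a (chr19:54045159-54045258, plus strand): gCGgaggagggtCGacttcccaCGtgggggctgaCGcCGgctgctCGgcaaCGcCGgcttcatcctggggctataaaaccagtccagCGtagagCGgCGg
Mybpc3 (chr2:91118044-91118143, plus strand): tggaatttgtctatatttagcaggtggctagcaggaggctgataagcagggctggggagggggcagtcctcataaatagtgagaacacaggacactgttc
Cntn3 (chr6:102464668-102464767, minus strand): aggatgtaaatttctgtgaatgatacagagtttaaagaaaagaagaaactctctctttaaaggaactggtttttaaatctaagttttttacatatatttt
The Adra2a stretch holds 11 CpG, Trnp1 and Rpl39l 8 each, Col9a2 5, and Mybpc3 and Cntn3 0.

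The libraries held 46597871 and 49764454 reads in WT and 83586916 and 76688583 in KO, so the KO libraries were deeper, and 1 read was worth 1.30 and 1.22 normalised read counts in WT and 0.758 and 0.825 in KO. A count of 0 therefore allows up to 3.89 and 3.66 in the WT libraries, for counting error only. Asxl1 (chromosome 2, 153171874 to 153229743) stood at 9742 and 9472 in WT and 146 and 135 in KO, so its level followed the genotype labels. Kit was present at 17739 and 16149 in WT and 18483 and 18889 in KO, in a row merged with a clone. Xist was high in the first replicate of both genotypes and Y-linked transcripts in the other, at 103006 and 89290 against 2123 and 147 for Xist, so the libraries of a genotype were not repeats of 1 animal. The spread behind each p-value includes this difference between animals. Among 13764 loci with enough reads for a test, limma called 1640 higher in KO (11.9%) and 1235 lower (8.97%), 20.9% in all, at an adjusted p under 0.05. With upper-quartile scaling, 43.0% of the calls were higher in place of 57.0%.

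All 30 loci were among those called higher, beside 6.76% of the 2768 tested loci with a WT mean under 100. Nothing is read from that count, since the rule selected it. WT means ran from 2.59 to 99.4 with a median of 21.4, and KO means from 57.9 to 424 with a median of 117. The ratio of the means had a median of 5.24 and a range of 3.23 to 24.5. In reads, a locus rested on 4 to 158 counts over both WT libraries and on 146 to 1077 over both KO libraries. Added together, the 30 loci came to 872 and 855 in WT and to 4600 and 4274 in KO. The plot of 29 of the loci by library shows the pattern locus by locus.

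**Figure D1:**
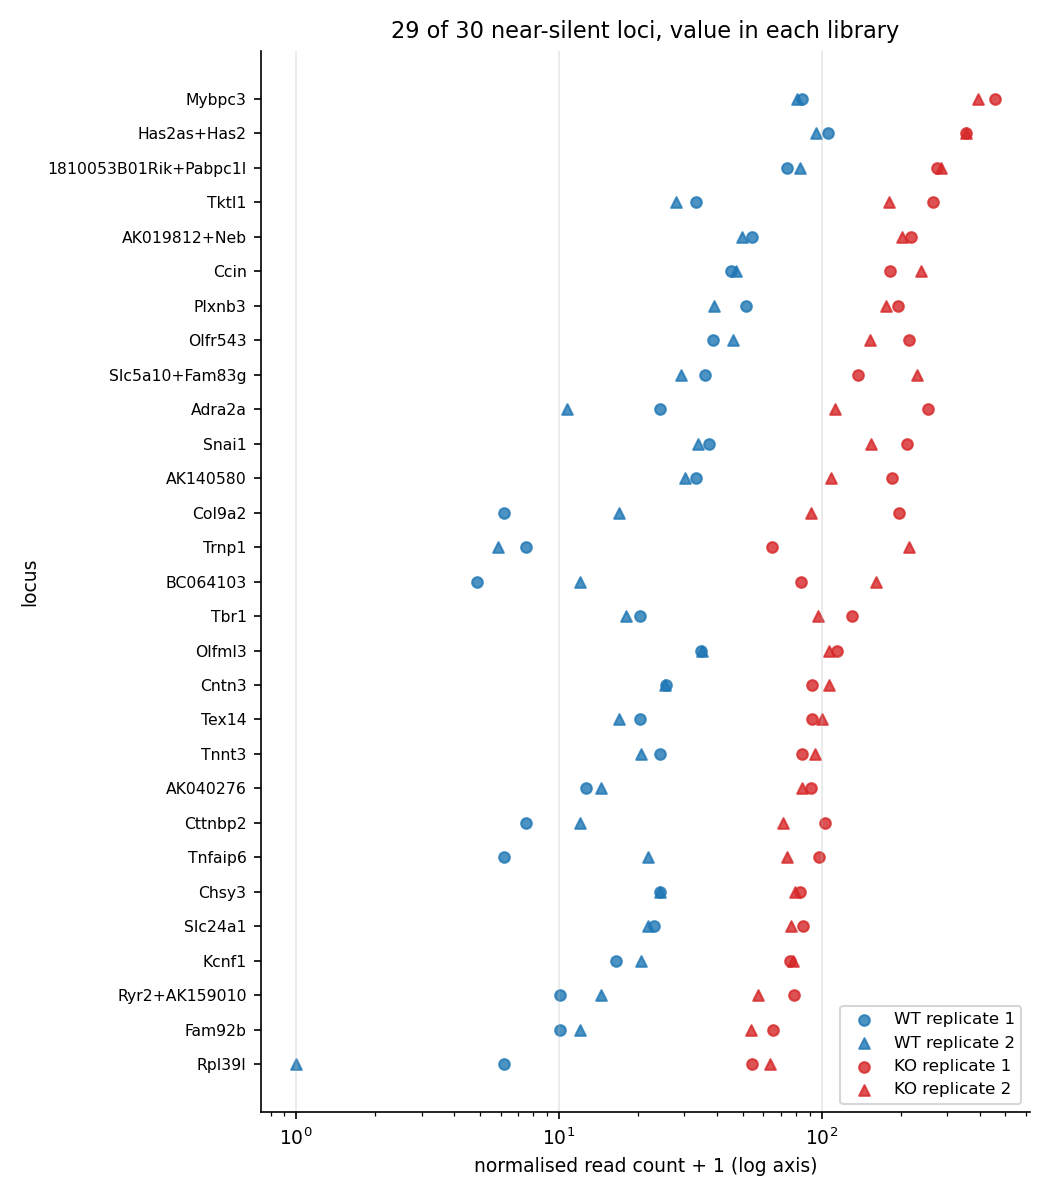
Normalised read count + 1 on a log axis for 29 of the 30 loci, ordered by KO mean, with WT libraries in blue, KO libraries in red, circles for replicate 1 and triangles for replicate 2. The WT and KO points of a locus never overlap, which the rule required, and the red points of Trnp1, Adra2a and Col9a2 lie farthest apart.

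Muscle genes included the locus with the highest KO level. Mybpc3, cardiac myosin-binding protein C of the sarcomere's thick filament, lies at chromosome 2, 90958300 to 90976673 and had 82.9 and 79.3 in WT and 455 and 394 in KO. The KO mean was 5.23 times the WT mean, 424 ± 43.2 against 81.1 ± 2.55 (SD, n = 2). Neb, in a row merged with clone AK019812 at chromosome 2, 51992166 to 52194318, encodes nebulin, the giant protein that runs along the thin filament. It had 53.1 and 48.8 in WT and 218 and 201 in KO, a ratio of 4.11. Tnnt3, the fast skeletal troponin T (chromosome 7, 149684740 to 149701914), had 23.3 and 19.5 in WT and 83.4 and 93.2 in KO, and Ryr2, the cardiac calcium-release channel, had a KO mean of 66.7 ± 15.0 against 11.2 ± 3.08 (SD, n = 2) in a row merged with clone AK159010 (chromosome 13, 11645369 to 12199212). For all 4 muscle loci the KO libraries lay close together, within 1.38 times of each other. Other muscle genes, from a list chosen after the values were seen, are given as levels. Ttn, Ryr1 and Tnnc1 are examples that were higher in KO and do not stand for the whole list. Ttn, merged with a clone, had 53.1 and 54.9 in WT and 97.8 and 96.5 in KO, and Ryr1, also merged, 189 and 194 in WT and 322 and 380.4 in KO. Tnnc1 had 32.4 and 26.8 in WT and 56.1 and 57.8 in KO. Myod1 and Myog, the factors that start the skeletal muscle programme, had at most 4 reads in any library. Of the 45 genes of that list 40 were in the table, and those that were not among the 30 loci summed to 3817 and 3860 in WT and 4739 and 4167 in KO.

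Genes of the extracellular matrix formed the next group. Has2, the enzyme that spins hyaluronan at the plasma membrane, is merged with its antisense transcript Has2as at chromosome 15, 56497181 to 56526101, and without strand information their reads cannot be told apart. The merged row had 105 and 93.9 in WT and 354 and 352 in KO, and its WT mean of 99.4 ± 7.77 (SD, n = 2) lay just under the limit of the rule. Tnfaip6, a secreted protein that binds hyaluronan and remodels it, had 5.18 and 20.7 in WT and 97.0 and 72.6 in KO (chromosome 2, 51893632 to 51912201). Its WT libraries differed, at 4 and 17 reads, and both lay below the KO libraries. Col9a2, a chain of the type IX collagen of cartilage, had 5.18 and 15.9 in WT and 196 and 89.9 in KO (chromosome 4, 120712170 to 120727930). Its ratio of 13.6 rested on 17 WT reads and 367 KO reads, a rate ratio of 13.6. The 95% exact interval of 8.36 to 23.6 covers counting error only and leaves out the spread between libraries. It is no test, since the rule selected on the ratio. Chsy3, which builds the chondroitin sulfate chain, had 23.3 and 23.2 in WT and 81.9 and 78.4 in KO (chromosome 18, 59334993 to 59676392). Olfml3, a secreted olfactomedin-domain protein, had 33.7 and 34.1 in WT and 114 and 106 in KO (chromosome 3, 103539316 to 103541924), and its ratio of 3.23 was the smallest of the 30. The ratio of the means was 3.55 for Has2, 6.55 for Tnfaip6 and 3.45 for Chsy3. The KO libraries of Has2, Chsy3 and Olfml3 agreed closely, whereas replicate 1 of Col9a2 was 2.17 times replicate 2.

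The relatives of these matrix genes can be set beside them. Among other hyaluronan genes and Tnfaip6 partners, 2 of 8 tested were called higher by limma and 0 lower, against 11.9% called higher among all tested loci. At an unadjusted p under 0.05 there were 3 higher and 0 lower, and edgeR called 2 and 0. Cd44, the main hyaluronan receptor of blood cells, had 16923 and 16429.5 in WT and 21998 and 22601 in KO, a log2 fold change of 0.42 ± 0.04 (limma adjusted p = 0.0036). Itih5, which belongs to a family of hyaluronan-associated proteins, had 1786 and 2009 in WT and 2926 and 3120.0 in KO and changed by 0.67 ± 0.08 (limma adjusted p = 0.0056). Both calls held when any 1 library was left out. In the cartilage list, 0 of the 10 other tested genes were called by limma in either direction, 1 was higher and 0 lower at an unadjusted p under 0.05, and edgeR called 0. The median log2 fold change of these 10 genes was -0.08, beside -0.01 over all tested loci.

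Genes known from germ cells made up another group. Pabpc1l, the poly(A)-binding protein of oocytes, had 72.5 and 81.7 in WT and 273 and 284 in KO in a row merged with 1810053B01Rik (chromosome 2, 163851185 to 163876274). Ccin, calicin of the sperm head skeleton, had 44.0 and 46.3 in WT and 180.4 and 237 in KO (chromosome 4, 43996375 to 43998405), with KO replicate 2 the higher of the pair. Tex14, a component of the bridges that join male germ cells, had 19.4 and 15.9 in WT and 91.0 and 99.0 in KO (chromosome 11, 87218566 to 87369325). Rpl39l, a testis paralog of a ribosomal protein gene (chromosome 16, 10170320 to 10175004), had the lowest WT level: 4 reads in replicate 1 and 0 in replicate 2, or 5.18 and 0 normalised read counts, against 53.1 and 62.7 in KO. The rate ratio was 23.0, with a 95% exact interval of 8.78 to 85.4, for counting error only and, as for Col9a2, no test. Pabpc1l, Ccin and Tex14 had smaller ratios of 3.61, 4.62 and 5.38. Whether reads of near-identical copies such as Rpl39 were counted here was not tested.

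Other germline genes from the wider list gave calls at about the rate of all loci. Of 24 tested apart from Tex14, limma called 3 higher and 2 lower, beside 11.9% and 8.97% of all tested loci. Sycp2, of the synaptonemal complex, had 42.7 and 42.7 in WT and 122 and 97.4 in KO, a log2 fold change of 1.33 ± 0.26 (limma adjusted p = 0.021). Ldhc, the sperm lactate dehydrogenase, changed by 1.21 ± 0.21 from 105 and 115 in WT to 224 and 290.5 in KO. Stag3, the meiotic cohesin subunit, had 1452 and 1909.9 in WT and 2858 and 2617 in KO and changed by 0.72 ± 0.14. The Tdrkh locus, merged with Oaz3 and a clone, was lower, with 882 and 804 in WT and 347 and 223 in KO, and Sycp3, merged with Chpt1, changed by -0.46 ± 0.10. Of these 5 the Tdrkh locus alone stayed called when either WT library was left out. Sycp2, Ldhc and the Sycp3 row were lost without WT replicate 1 or without WT replicate 2, Stag3 without WT replicate 1, and Sycp2 also without KO replicate 1. Among ribosomal protein paralogs other than Rpl39l, 0 of 10 were called higher by limma and 1 lower, with 1 and 3 at an unadjusted p under 0.05 and 0 and 1 by edgeR. The lower gene was Rps27l, with 7135 and 7187 in WT and 5433 and 6036 in KO, and its call was lost without WT replicate 1 or WT replicate 2.

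Transcription factors were represented by 2 loci. Snai1, a zinc-finger repressor known for its part in epithelial-mesenchymal transition, had 36.3 and 32.9 in WT and 209.9 and 153 in KO (chromosome 2, 167363726 to 167368311), a ratio of 5.24. Its paralog Snai2 had 6.48 and 1.22 in WT and 0.758 and 1.65 in KO and Snai3 23.3 and 8.54 in WT and 10.6 and 10.7 in KO, so neither relative showed such a gain. Tbr1, a T-box factor of cortical neurons, had 19.4 and 17.1 in WT and 129 and 95.7 in KO (chromosome 2, 61642509 to 61652170). The closest relative Eomes had 92.0 and 98.8 in WT and 44.7 and 52.0 in KO, lower in both KO libraries. From the list of developmental transcription factors, which holds neither Snai1 nor Tbr1, 38 of 64 genes were in the table and 6 had enough reads for the test. Limma called 1 of them higher and 0 lower, beside 11.9% and 8.97% of all tested loci. The same numbers were called by edgeR, and 1 and 1 passed an unadjusted p under 0.05. The called gene was Pax8, merged with a clone, with 153 and 128 in WT and 286 and 344 in KO, and the call was lost without WT replicate 2.

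Receptors and proteins of cell contact came next. Adra2a, the alpha-2A adrenergic receptor, had 23.3 and 9.76 in WT and 252 and 111 in KO (chromosome 19, 54119671 to 54123472). Its ratio was 11.0, and replicate 1 was the higher library in both genotypes. Plxnb3, a plexin receptor for semaphorins, had 50.5 and 37.8 in WT and 193 and 175 in KO (chromosome X, 71002398 to 71017849). Cntn3, a contactin of the neuronal surface, had 24.6 and 24.4 in WT and 91.0 and 106 in KO (chromosome 6, 102113299 to 102414661), with WT libraries that differed by only 1 read. Olfr543, an olfactory receptor gene, had 37.6 and 45.1 in WT and 214 and 152 in KO (chromosome 7, 109625286 to 109626416). Plxnb3, Cntn3 and Olfr543 had ratios of 4.17, 4.01 and 4.43. Of the other contactins in the table, Cntn1, Cntn2, Cntn4 and Cntn6 stayed at or below 16.7 in every library. Of the plexin paralogs, Plxnb2 had 2134 and 2154 in WT and 1326 and 1178 in KO and Plxnb1, merged with a clone, had 55.7 and 57.3 in WT and 28.0 and 22.3 in KO. Plxnc1, another plexin, had 7653 and 7306 in WT and 10279.7 and 9859 in KO, so plexin paralogs differed in both directions. The contactins and plexins other than Cntn3 and Plxnb3 summed to 18168 and 17758 in WT and 18789.7 and 19946 in KO.

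Of the arrestins, which uncouple receptors of this kind, Arrb2 had 8732 and 9737 in WT and 14869.7 and 15289.6 in KO and changed by 0.71 ± 0.06 (limma adjusted p = 0.0022), and Arrb1 had 10847 and 11329 in WT and 13070.4 and 14443 in KO and changed by 0.31 ± 0.06. Leaving out WT replicate 1 or WT replicate 2 ended the call of Arrb1 and not that of Arrb2. Per kilobase of exon, Adra2a reached 37.6 in KO whereas Arrb2 stood at 4782 in WT and 7809 in KO.

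Transport proteins and channels formed a smaller group. Slc5a10, a sugar transporter of the kidney, shares a row with Fam83g, an overlapping gene, and their reads cannot be separated (chromosome 11, 61486283 to 61534301). The row had 35.0 and 28.1 in WT and 136 and 229 in KO, with KO replicate 2 the higher. Slc24a1, the sodium, calcium and potassium exchanger of rod photoreceptors, had a mean of 21.4 ± 0.908 in WT and 79.6 ± 6.39 in KO (SD, n = 2, chromosome 9, 64770667 to 64799414). Kcnf1, a modifier subunit of voltage-gated potassium channels, had 17.5 ± 2.81 and 75.9 ± 1.21 (SD, n = 2, chromosome 12, 17178905 to 17183694). Both loci were within the lower part of the KO range.

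The remaining named loci have varied roles. Tktl1, a transketolase-like protein on the X chromosome (chromosome X, 71422597 to 71453837), had 32.4 and 26.8 in WT and 263 and 179 in KO, a ratio of 7.47. The housekeeping transketolase Tkt had 74822 and 76073 in WT and 84491 and 81926 in KO, and Tktl2 had 1 read in all 4 libraries together. Trnp1, a nuclear protein of neural progenitors (chromosome 4, 133047014 to 133054465), had 6.48 and 4.88 in WT and 63.7 and 215 in KO and the highest ratio of the 30, 24.5. That value rested on 9 WT reads and 344 KO reads, and KO replicate 2 was 3.37 times KO replicate 1, the widest gap between KO libraries. Cttnbp2, which binds cortactin in dendritic spines, had 6.48 and 11.0 in WT and 102 and 70.1 in KO (chromosome 6, 18316476 to 18464825). Fam92b, a protein linked to cilia, had 9.07 and 11.0 in WT and 64.4 and 52.8 in KO (chromosome 8, 122690296 to 122701369), and its lower KO value was the one nearest to the minimum of 50.

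The partners of Cttnbp2 had small changes. Of 8 tested genes of cortactin binding and the striatin complex, limma called 2 higher, Strn at 0.25 ± 0.06 and Hcls1 at 0.20 ± 0.05, and 0 lower. At an unadjusted p under 0.05 the counts were 3 and 0, and edgeR called 2 and 0. Both calls ended with upper-quartile scaling, without WT replicate 1 and without WT replicate 2, and Hcls1 also without KO replicate 1. Neuronal genes as a list, with none of the 30 loci in it, had 4 of 12 tested called higher and 0 lower by limma. Over all tested loci limma called 11.9% higher and 8.97% lower. For the neuronal list there were 4 and 2 at an unadjusted p under 0.05 and 4 and 0 by edgeR. Mapt, the microtubule protein tau, had 72.5 and 79.3 in WT and 234 and 279.7 in KO and changed by 1.74 ± 0.21, and it missed the rule with a ratio of 2.95. Ncam1, merged with a predicted gene, changed by 0.67 ± 0.11. Both held without any 1 library. Ap1b1 merged with Nefh changed by 0.38 ± 0.05 and was lost without WT replicate 2. A row that joins Syn1 with Araf and Cfp changed by 0.21 ± 0.05 and was lost without WT replicate 1, WT replicate 2 or KO replicate 2. In these rows the reads of Nefh and Syn1 cannot be told apart from those of the genes merged with them. The protocadherins tested, 7 in number, had a median log2 fold change of -0.83. Of 7 tested protocadherins limma called 1 higher, the Pcdh7 row at 0.64 ± 0.15, and 0 lower, with 2 and 1 at an unadjusted p under 0.05 and 1 and 0 by edgeR, and that call was lost without WT replicate 1, WT replicate 2 or KO replicate 2.

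The 3 clone loci had KO means from 86.8 to 146. AK140580 (chromosome 15, 82813299 to 82819564) had 32.4 and 29.3 in WT and 184 and 107 in KO. BC064103 (chromosome 14, 43797316 to 43798739) had 3.89 and 11.0 in WT and 82.6 and 160.1 in KO, and its ratio of 16.3 came after those of Trnp1 and Rpl39l. AK040276 (chromosome 11, 87872567 to 87880978) had 11.7 and 13.4 in WT and 90.2 and 83.3 in KO, with both KO libraries close together.

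Agreement between the KO libraries varied from locus to locus. The higher KO value was a median of 1.21 times the lower one, against 1.19 in 2251 other tested loci of the same range of KO means. It exceeded 2 in Trnp1 (3.37), Adra2a (2.27) and Col9a2 (2.17). KO replicate 1 was the higher library in 19 of the 30 loci and KO replicate 2 in the other 11. In 6 loci, leaving out 1 library moved the fold change by more than 1.5 times, given here on the log2 scale. For Rpl39l it was 4.56 with all libraries, 5.87 without WT replicate 1 and 3.25 without WT replicate 2. In the same order it was 2.87, 1.97 and 3.78 for Tnfaip6, 3.71, 2.99 and 4.44 for Col9a2, 3.92, 3.28 and 4.57 for BC064103 and 3.38, 3.97 and 2.80 for Adra2a. Adra2a was also 2.80 without KO replicate 1 and 3.97 without KO replicate 2. Trnp1 went from 4.15 to 5.02 without KO replicate 1 and 3.29 without KO replicate 2. For the loci with the widest gaps the mean describes neither library well, while for Has2, Kcnf1, Pabpc1l and Chsy3 the KO values were within 1.04 times of each other.

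The loci nearest to the thresholds show how the rule divided a continuous range. Just inside the ratio of 3 were Olfml3 at 3.09, AK140580 at 3.31 and Pabpc1l at 3.34, and just outside were Serpina11 at 2.96, Mapt at 2.95 and Orm3 at 2.95. For the lower KO value, Fam92b at 52.8, Rpl39l at 53.1 and Ryr2 at 56.1 lay inside, and AK010368 at 44.7, Gm8439 at 40.9 and Mkx at 40.2 outside. By WT mean, Has2 at 99.4, Mybpc3 at 81.1 and Pabpc1l at 77.1 lay inside, and the Ceacam16 row at 101.8, the Krt81 row at 117 and Atp8a2 at 173 outside. With the genotypes exchanged, the same thresholds were met by 20 loci that were near silent in KO. Those 20 included the interferon-response genes Ifi44, Ifit1, Isg15 and Oas1g and the merged Iigp1 row, and also Rgs8, Kctd17 and Sema3d.

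**Figure D2:**
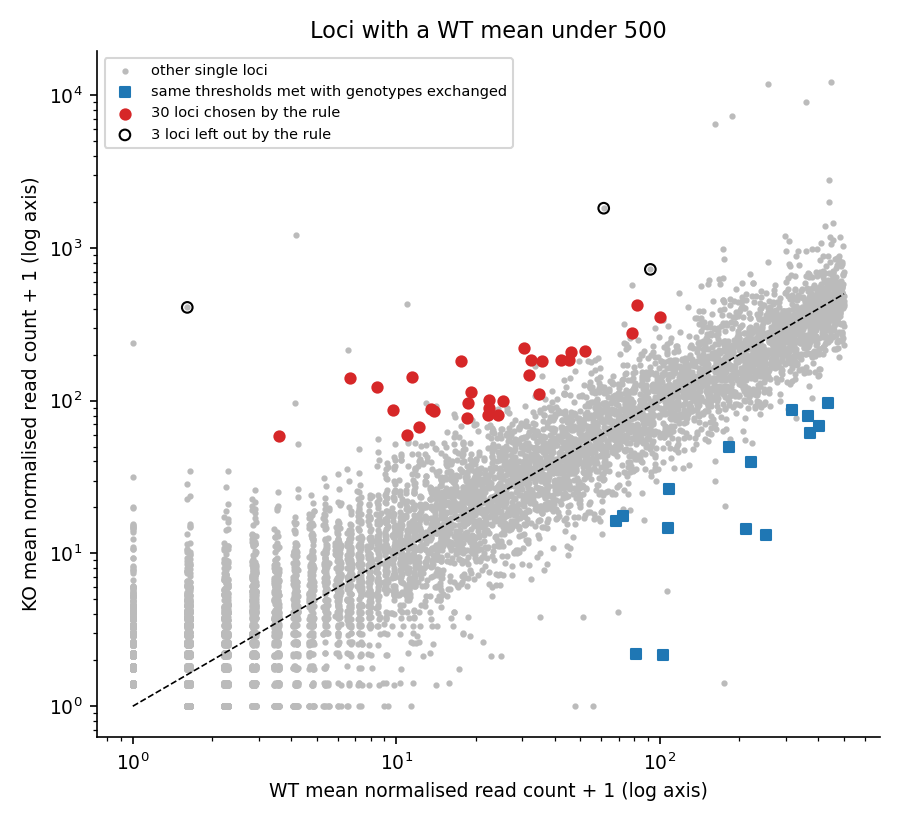
Mean normalised read count + 1 in KO against WT, both axes log, for single loci with a WT mean under 500, with the 30 loci in red, the loci meeting the same thresholds with genotypes exchanged as blue squares and the 3 loci set aside as open circles. The red points lie above the line of equality over the whole range of WT means from 2.59 to 99.4, and 15 of the 20 exchanged loci fall inside the plotted range.

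In absolute terms the loci remained weak in KO. Dividing by exon length, which 23 of them had, gave KO means of 15.3 to 126 normalised read counts per kilobase with a median of 48.8. The WT means of the same loci were 1.68 to 32.8 per kilobase, median 6.21. All 23 lay below the median of 477 per kilobase in KO over 10769 tested loci. Olfr543 was the highest per kilobase in KO, at 28.4 in WT and 126 in KO, and Slc24a1 the lowest, at 4.10 in WT and 15.3 in KO. Mybpc3 had 19.5 in WT and 102 in KO. For Olfr543, Adra2a and Olfml3 the annotated exons, from a later build, were longer than the deposited locus, so their values per kilobase may be too low.

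By position the loci were scattered over 16 chromosomes. Chromosome 2, which carries Asxl1, held 6 of the 30, and of all tested loci with a WT mean under 100 it held 8.06%. The nearest to Asxl1 were Pabpc1l, 10.6 Mb away, and Snai1, 14.1 Mb away, and Mybpc3, Neb, Tbr1 and Tnfaip6 were farther. Tnfaip6 and Neb lie 80.0 kb apart with 1 other locus between them. On the X chromosome Plxnb3 and Tktl1 lie 405 kb apart with 14 loci between, and on chromosome 11 Tex14 and AK040276 lie 503 kb apart with 15 between. Every other pair on a chromosome was at least 3.49 Mb apart.

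Genes beside the 30 loci were not used by the rule, so their changes could be tested. The nearest tested locus on each side gave 59 distinct neighbours. Limma called 10 of them higher in KO (16.9%, against 11.9% of all tested loci) and 6 lower (10.2%, against 8.97%), and their median log2 fold change was 0.01. The neighbours had a median WT mean of 4457, while the median KO mean over all tested loci was 1515. The shares are not matched for expression level, so no effect of position is read from them. Within 5 kb, a limit set after the values were seen, lay 16 neighbours. Limma called 6 of these higher and 0 lower, beside 7 and 2 at an unadjusted p under 0.05 and 6 and 0 by edgeR, and their median was 0.27. The plot of neighbours by distance shows that the 6 lie at gaps of 1.09 to 4.38 kb.

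**Figure D3:**
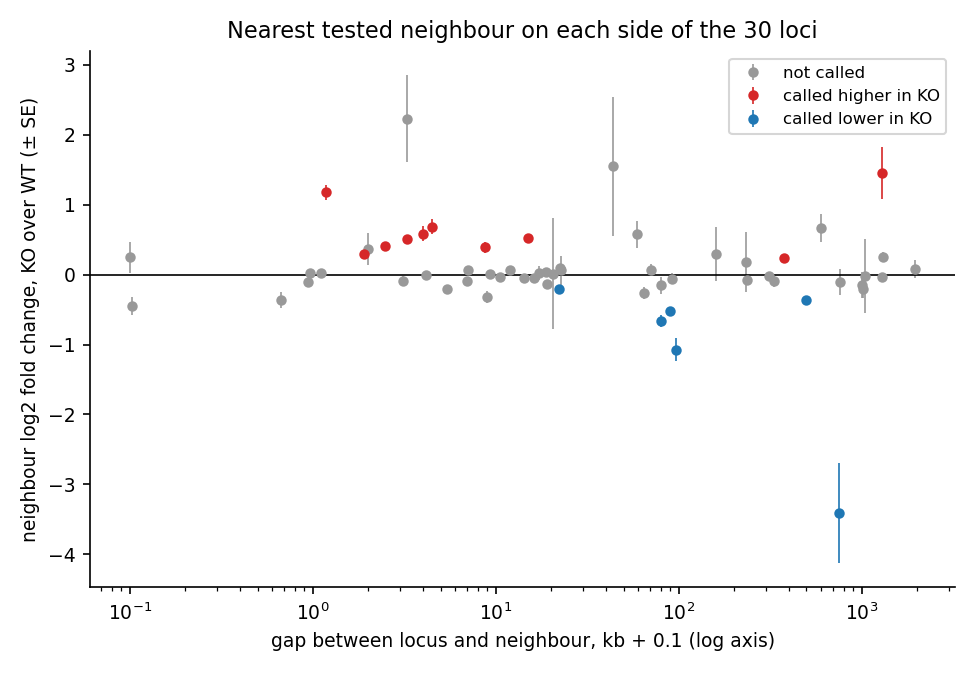
Log2 fold change, KO over WT, of the nearest tested neighbour on each side of the 30 loci against the gap in kb on a log axis, with bars of ± SE, red for neighbours called higher by limma, blue for called lower and grey for the rest. The 6 called neighbours within 5 kb are all red, and the 6 blue points lie at gaps of 22.1 kb or more.

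Several of the close neighbours are well-expressed genes. 6430548M08Rik, 1.09 kb from Fam92b on the opposite strand, had 3063 and 3764 in WT and 7489 and 7852 in KO, a log2 fold change of 1.18 ± 0.10 (limma adjusted p = 0.0021). Glipr2, 4.38 kb upstream of Ccin on the same strand, changed by 0.69 ± 0.11 (limma adjusted p = 0.011). Zmpste24, 3.91 kb from Col9a2, changed by 0.59 ± 0.10, and Dennd4a, 3.19 kb from Slc24a1, by 0.51 ± 0.05. Sfpi1, which encodes the myeloid transcription factor PU.1 and lies 2.39 kb upstream of Mybpc3 on the same strand, had 8819.8 and 8464 in WT and 10951 and 11924 in KO, a change of 0.40 ± 0.06. Hipk1, merged with a clone 1.81 kb from Olfml3, changed by 0.30 ± 0.06. Fam46b, 3.16 kb from Trnp1, had 1.30 and 2.44 in WT and 12.9 and 11.6 in KO and was not called (limma adjusted p = 0.053). It entered the test through its KO values alone, so the filter was not independent of its change.

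Farther away, Chrm3, Flna, Nfam1 and Trim33 were also called higher, and Trim21, the Pdia6 row, Isoc1, the Spata2 row and Gm4841 were among those called lower. Chrm3, a muscarinic receptor 1285 kb from Ryr2, had 66.1 and 130.5 in WT and 213 and 309 in KO, and Flna, 15.0 kb from Tktl1, changed by 0.53 ± 0.05. Trim21 changed by -0.67 ± 0.09 and the Pdia6 row by -0.52 ± 0.04. Gm4841 had 11.7 and 14.6 in WT and a single read over both KO libraries. It entered the test through its WT values alone, so the filter was not independent of its change. Of the 16 neighbours called, 11 were still called without WT replicate 1 and 9 without WT replicate 2. Those lost in one or both were Chrm3, Gm4841, Hipk1, Spata2, Trim33, Isoc1, Nfam1 and Sfpi1, and Chrm3 was also lost without KO replicate 2 and Spata2 without KO replicate 1.

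Reads that run from a neighbour into one of the loci were looked for in 2 ways. The table has rows that join adjacent loci, and 12 such rows hold one of the 30. They carried 97 reads over the 4 libraries, beside 12623 reads at the 30 loci themselves. A joined row may take only reads that touch both loci, so the low number does not bear on reads that start in the gap. Second, strand was known for 25 loci, and 13 of them (52.0%) had a tested neighbour within 5 kb, as did 48.6% of 2231 other tested loci with a WT mean under 100. A neighbour whose 3′ end faces the locus lay within 5 kb in 10 (40.0%), against 29.3%. The median gap to a locus with a WT mean of at least 1000 was 9.68 kb, against 12.8 kb over 2731 other tested loci with a WT mean under 100. Such a locus lay within 5 kb of 11 of the 30 loci (36.7%), against 37.2% of those 2731. The part of transcription from outside in these values was not tested.

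The promoter windows, from 250 bases before to 50 after the start, were available for 22 of the 30 loci, with Fam92b under its current name Cibar2. Observed over expected CpG had a median of 0.38, close to the 0.40 of 3948 other loci with a WT mean under 100 and below the 0.70 of all 12720 other loci. A value of at least 0.6 was found in 8 (36.4%), against 32.9% and 60.6%. The GC content had a median of 55.0%, against 55.3% and 59.3%. By these measures the promoters looked like those of other near-silent loci.

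**Figure D4:**
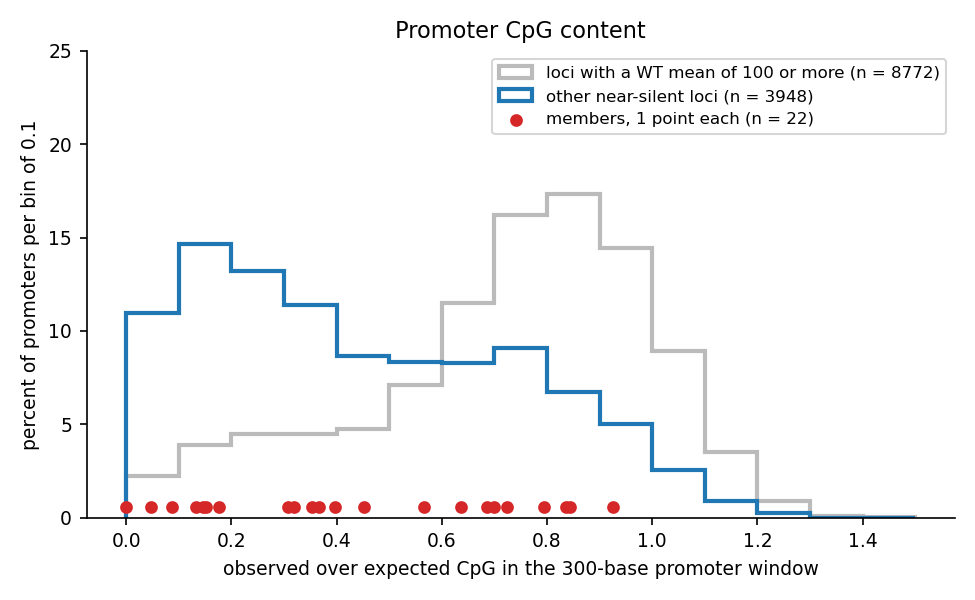
Percent of promoters per bin of 0.1 of observed over expected CpG in the 300-base window, for other loci with a WT mean under 100 in blue and for loci with a WT mean of 100 or more in grey, with 22 of the 30 loci as red points on the base line at an arbitrary height. The red points run from 0 to 0.93 and cover the range of the blue outline up to 0.93.

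Among the loci themselves, CpG content is set beside the ratio as a description only, because the rule chose them by that ratio. The 8 with at least 0.6 were Snai1 (0.93), Cttnbp2, Rpl39l, Adra2a, Tnfaip6, Trnp1, Tex14 and Tktl1, and their KO to WT ratios had a median of 8.65 and a range of 5.24 to 24.5. The 14 below 0.6 had a median ratio of 4.52 and a range of 3.23 to 13.6, with Col9a2 the highest. The 2 sets had similar KO means, with medians of 117 and 128, and differed in WT, with medians of 14.7 and 28.0. Over the 22 loci Spearman's rho of CpG with the ratio was 0.63 and with the WT mean -0.47, as a description, since all share the same 4 libraries and were chosen by that ratio. With the KO mean the rho was -0.21. With the log2 fold change it was 0.61. Over 1666 other tested loci with a WT mean under 100 and a promoter, not chosen by the ratio, the rho of CpG with the log2 fold change was -0.08. A ceiling on the WT mean and a floor on the KO values, both set by the rule, tie the ratio to the WT level in these loci. No relation of CpG to the ratio is therefore read from them.

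In all, 8 short motifs, each searched on both strands and none contained in another, were counted in the 22 windows. GGGCGG, the GC box, occurred in 12 (54.5%), against 40.3% of other loci with a WT mean under 100 and 57.2% of all other loci. CCAAT was in 7 (31.8%), against 36.3% and 38.5%. TATAAA was in 1 (4.55%), that of Adra2a, against 14.4% and 9.21%. CCGGAAG, the ETS core, was in Rpl39l and Tex14 (9.09%, against 4.61% and 14.5%), and AGATAA, the GATA core, in Trnp1 and Tktl1 (9.09%, against 10.3% and 7.67%). CACGTG was in Adra2a, TGANTCA in Tnfaip6 and TGACGTCA in Ccin, each 4.55%, against 6.31%, 8.28% and 1.80% of other loci with a WT mean under 100 and 9.12%, 5.94% and 2.88% of all other loci. A match says only that the letters are present, and no motif was shared by most of the loci apart from the GC box.

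Marker genes of other cell types were summed in each library, since the Lin-Kit+ gate can hold other cells. Beside the counts below, limma called 11.9% of all 13764 tested loci higher and 8.97% lower. An unadjusted p under 0.05, in either direction, was found for 5194 of them. Mature neutrophil markers such as Ngp, Ltf and Camp came to 1100822 and 1227074 in WT and 2226046 and 2086389 in KO, and limma called 13 of 14 higher and 0 lower, with 14 and 0 at an unadjusted p under 0.05 and 13 and 0 by edgeR. Olfm4, a granule protein of neutrophils, had 5371 and 4675 in WT and 24559.7 and 24876 in KO. Eosinophil, mast cell and basophil markers came to 153257 and 153865 in WT and 299248 and 295943 in KO, with 4 of 13 called higher, among them Prg2 at 1.14 ± 0.04, and 5 lower, among them Prss34 at -1.26 ± 0.07. Erythroid markers had 3 of 9 called higher and megakaryocyte markers 2 of 9, with 5 and 4 higher at an unadjusted p under 0.05. B cell markers had 3 of 9 called lower, T and NK cell markers 2 of 10 and endothelial markers 3 of 8, with 9, 3 and 5 lower at an unadjusted p under 0.05. Monocyte and macrophage markers had 2 of 11 called higher and 3 lower, with 2 and 5 at an unadjusted p under 0.05. The neutrophil calls held with any 1 library left out, but most of the others rested on both WT libraries. Without WT replicate 1 or without WT replicate 2, all 3 B cell calls and all 3 endothelial calls ended, 2 of 5 monocyte calls remained (Emr1 and Cd14) and 3 of 9 eosinophil, mast cell and basophil calls (Prg2, Epx and Prss34). Without WT replicate 1 alone, both megakaryocyte calls ended, as did Alas2, Epor and Cd4, and without WT replicate 2 the Itga2b row. Without KO replicate 1 Cpa3 and Fcer1a ended, and without KO replicate 2 C1qa, Fcer1a and Epor. Stroma, bone and cartilage markers came to 6516 and 6135 in WT and 6255 and 6587 in KO, with 0 of 9 called by limma or edgeR and 1 higher and 1 lower at an unadjusted p under 0.05. The table has no row that is 0 in all 4 libraries, and the listed markers Trbc1 and Hba-a1 were not matched to a row. The part of these cell types in the values of the 30 loci was not tested.

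Chromatin regulators linked to gene silencing had a median log2 fold change of -0.06. Of 27 tested, limma called 1 higher and 2 lower, Asxl1 among the latter, beside 11.9% and 8.97% of all tested loci. At an unadjusted p under 0.05 there were 2 higher and 6 lower, and edgeR called 1 and 2. The higher gene was the paralog Asxl2, with 7739.7 and 7669 in WT and 8715 and 8654 in KO and a change of 0.17 ± 0.05, and the other lower gene was Ezh2, the Polycomb methyltransferase, with 18256 and 17578 in WT and 15918 and 15529 in KO and a change of -0.19 ± 0.05. Asxl2 was lost in each of the 4 fits that left out a library, with upper-quartile scaling, with the replicate number as a block and without the filter on low values, and Ezh2 without WT replicate 1, WT replicate 2 or KO replicate 2.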

How the data were processed

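RNA sequencing of Lin-Kit+ marrow cells gave 2 WT and 2 KO libraries, grouped by the labels. Reads were aligned with STAR 2.3.1t to mm9, per the submitters' processing notes. The counter, its annotation and its use of strand were not given in the sources used here. Signal is the unit of the deposited table: each library's whole reads times a constant of that library, so dividing by the value of 1 read gave whole numbers within 0.001. These signal values are called normalised read counts. Rows that join neighbouring loci with a comma were left out. No column of per-sample values was unused.

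Loci that reached 10 in 2 or more libraries entered limma 3.58.1 (R 4.3.3) on log2(value + 1) with a mean-variance trend, with Benjamini-Hochberg adjustment over 13764 loci and a threshold of 0.05. Fold changes are on that scale, which understates changes of low loci. The fit was tested on simulated data. edgeR 4.0.16 on the recovered reads, other scalings, pseudocounts and filters, a replicate block and leaving out each library were alternatives. Counts of loci meeting the rule were repeated with other thresholds. Replicates of a genotype differed by more than sampling noise.

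Exon lengths, strand and older names came from GENCODE and promoter sequences from RefSeq, both GRCm38, matched by symbol, with 22 of 30 loci matched to a promoter. No coordinates were converted between builds.

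The loci and gene lists were chosen with earlier results of these data known. The lists of muscle, Snail, T-box, contactin and plexin, chondroitin and transketolase genes were added after seeing the values and are given as levels only. Named genes were Asxl1, every one of the 30 loci with a symbol, with the value in each library for the 25 with the highest KO mean and the 10 with the highest ratio, the 3 loci nearest each threshold, and the called neighbours and list genes of largest change. Other genes appear as relatives of these. Some genes that this rule takes are not reported here.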

Additional observations from a re-analysis of the deposited data

How the results depend on the processing

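The 30 loci stayed 30 under TMM scaling and were 28 under CPM scaling. The count was 7 with a ratio of 5 in place of 3 and 13 with at least 100 in each KO library. Leaving out 1 library, so that the rule used the single one left in that genotype, gave 51 to 83, and 29 or all of the 30 were among them. That overlap was built in, since a left-out library only relaxes the KO minimum and the ratio. A locus could drop out by its WT mean alone. The exchanged rule gave 20 loci, 10 with a ratio of 5, 12 with a mean under 50 and 30 to 54 with a library left out. Of 210 recomputed fold changes of the 30 loci, 0 reversed and 13 moved by more than 1 SD, over a range of 1.56 to 5.87. Most of these outcomes were fixed beforehand and are no support. Given the rule, leaving out a library could not reverse a fold change. Nor could it move one by more than this SD, and the replicate block left each unchanged. The 13 moves came from edgeR or a pseudocount of 5. Limma called 2875 loci, 869 to 3233 without 1 library, with 603 to 1714 higher and 266 to 1542 lower. The lowest of these total and higher counts, 869 and 603, came without WT replicate 1, and without WT replicate 2 they were 1081 and 809. Upper-quartile scaling called 1384 higher and 1833 lower. Of the neighbours 16 were called, and 10 to 20 without 1 library. No label says that replicate numbers pair libraries, but Xist and Y-linked transcripts split both genotypes by number. With the replicate number as a block, which is then also a block of sex, limma called 3439 loci, and 22 neighbours in place of 16. Deviations of replicate 1 from its genotype's mean correlated at 0.246 between genotypes over 13764 loci, which share the 4 libraries. With 4 to 158 WT reads behind each of the 30 loci, their ratios are limited by counting error in WT.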

Other observations

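A few other near-silent loci were high in only 1 KO library and so did not meet the rule. They were chosen after their values were seen and are given as values, with no test. Klk1b22, a kallikrein gene, had 0 and 0 normalised read counts in WT, 474 in KO replicate 1 and 0.825 in KO replicate 2, the last being 1 read. Gm6724 had 7.77 and 12.2 in WT, 852 in KO replicate 1 and 7.43 in KO replicate 2. Ear10, an eosinophil-associated ribonuclease gene, had 3.89 and 2.44 in WT, 1.52 in KO replicate 1 and 2428 in KO replicate 2. Me1, the cytosolic malic enzyme, merged with a clone, had 2.59 and 8.54 in WT, 0.758 in KO replicate 1 and 426 in KO replicate 2. Pira6, a paired immunoglobulin-like receptor gene, had 44.0 and 62.2 in WT, 28.8 in KO replicate 1 and 211 in KO replicate 2. In each of these 5 the other KO library stayed at or below the higher WT value or within a few reads of it.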
